A study of Mus musculus with 16 samples.

Results

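The genes described here are the CD-named surface antigens, the genes whose symbol is Cd followed by a number and, in some cases, further letters or digits. CD stands for cluster of differentiation, the naming system in which antibodies that recognise the same cell surface molecule are grouped. All distinct genes of the 4 deposited result tables were searched for such symbols, with Cd177 left out, and 49 of 5171 genes qualified. The symbol decided membership and the level of a gene did not, but a gene could be found only if the authors had called it different in at least 1 of the 4 comparisons, and the same holds for the 5171 genes used as background.

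RNA was sequenced from whole colon of male C57BL/6 mice that either had intact Smarcad1 in all cells (WT) or had lost it in the intestinal epithelium (KO). Smarcad1 is a chromatin remodelling factor, and the KO was made with Vil-Cre, in which the villin promoter drives the Cre recombinase in epithelial cells, so that leukocytes, endothelium and stroma of the KO mice keep the gene. All groups, controls included, had received an enriched gut microbiota by transfer of bedding 2 weeks beforehand. The groups were WT control (3 libraries, untreated), KO control (3 libraries, untreated), WT colitis (5 libraries) and KO colitis (5 libraries), and colitis was induced with 1% dextran sulfate sodium (DSS) in the drinking water for 15 days. DSS damages the colonic epithelium and brings leukocytes into the wall. The ages of the mice were not given in the sources used here, and the conditional allele came from 1 targeted line.

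Each value is the authors' group mean of log2 RPM, the reads of a gene scaled to the total of its library, which is not corrected for gene length. Values of single libraries were not used here, so no group has a standard deviation and no difference below was tested anew. A gene is said to have risen or fallen only where the authors' own 2-group comparison, at an adjusted p of 0.05, lists it, and all other differences are given as values. The low means fall on steps of whole reads, which gave geometric mean library sizes of 10114544 reads (WT control), 9766632 reads (KO control), 8004927 reads (WT colitis) and 9865774 reads (KO colitis). A level of 3 reads per library then lies at -1.75, -1.70, -1.42 and -1.72 log2 RPM in the same order. The targeted gene Smarcad1 had means of 5.77 in WT control, 4.59 in KO control, 5.68 in WT colitis and 4.55 in KO colitis, lower in KO by the labels' direction in both conditions, and the tissue also holds cells that keep the gene. Counting errors given below cover read counting only and not the spread between mice.

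CD molecules are receptors, co-receptors, adhesion molecules and enzymes, and many are used to tell leukocyte lineages apart. The CD3 chains carry the signal of the T cell receptor, CD4 and CD8 are its co-receptors on helper and cytotoxic T cells, CD79b is a signalling chain of the B cell receptor, and CD14 and CD68 mark monocytes and macrophages. In an inflamed colon such molecules are carried in by cells from the blood and are also switched on in cells already there. In whole tissue, more cells of a type and more RNA per cell cannot be told apart.

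Nearly all of these genes were higher in colitis in both genotypes. In WT mice 40 of the 49 rose, beside 36.6% of all genes, and 3 fell, beside 26.4%. In KO mice 43 rose, beside 44.8% of all genes, and 1 fell, beside 33.6%. At least a 2-fold higher mean in colitis was found for 35 members in WT (18.4% of all genes) and 35 in KO (16.0%), of which 33 were the same genes. At least a 2-fold lower mean was found for 1 member in each genotype, beside 13.0% of all genes in WT and 12.6% in KO. On the log2 scale the members had a median change of 1.40 (WT) and 1.42 (KO), against 0.13 and 0.19 over all genes. The authors' colitis lists of both genotypes held 38 members, beside 42.2% of all genes. For WT alone 5 were listed (Cd101, Cd80, Cd99l2, Cd320 and Cd44), beside 20.9%, and for KO alone 6 (Cd79b, Cd226, Cd27, Cd2, Cd28 and Cd69), beside 36.2%. Being listed in 1 genotype is not a test of a difference between genotypes. The 49 genes fell into 17 of T and NK lymphocytes, 2 of the B lineage, 11 myeloid, 5 of antigen presentation and costimulation, 7 shared by leukocytes, 2 of endothelium and stroma, and 5 that are broadly expressed or epithelial.

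**Figure D1:**
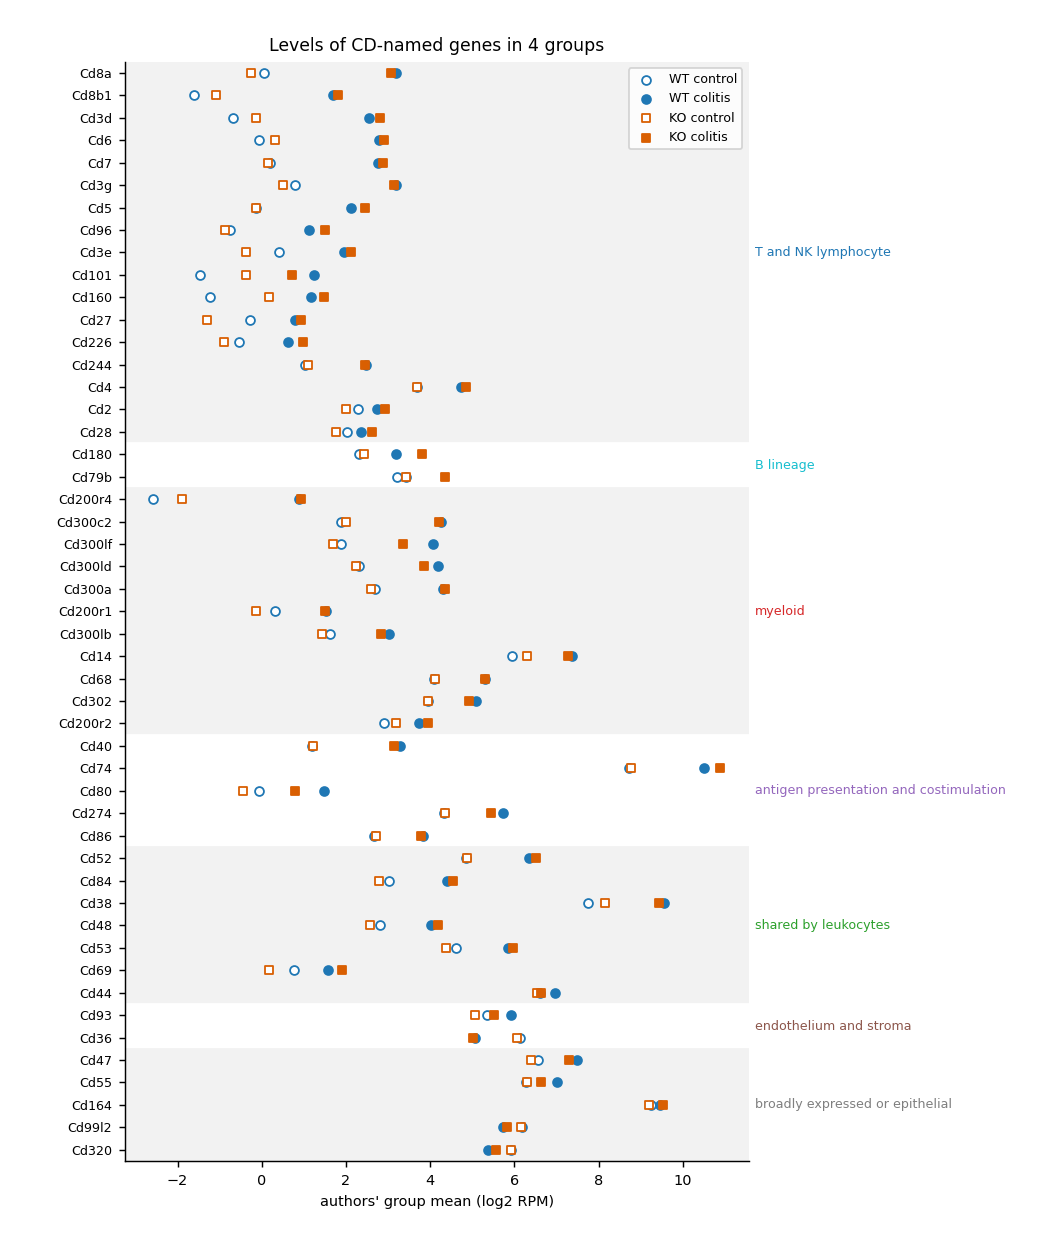
Authors' group mean of each of the 49 CD-named genes on the horizontal axis in log2 RPM, grouped by lineage, with open symbols for control, filled symbols for colitis, circles for WT and squares for KO. Filled symbols lie to the right of open ones for 46 genes in each genotype, and Cd74 has the highest means in colitis, 10.51 in WT and 10.90 in KO.

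The genes of T and NK lymphocytes had the largest median change. Of 17 genes, 13 rose in WT and 16 in KO, and 15 were at least 2-fold higher in each genotype. The middle value of the change was 2.25 for WT and 2.38 for KO, the highest of the 7 lineage groups. Cd8a, Cd8b1 and Cd3d had the largest changes of the group averaged over the genotypes. Their WT control means stood for few reads per library, 10.5 for Cd8a, 3.30 for Cd8b1 and 6.32 for Cd3d. Cd4, Cd2 and Cd28 had the most reads of the group in WT control, 130, 49.2 and 41.2 per library. They changed less, by 1.04, 0.47 and 0.34 in WT and by 1.15, 0.93 and 0.87 in KO. The part of low control levels in the ranking was not tested.

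The 3 genes of the CD3 signalling chains lie together within 40.1 kb of chromosome 9, Cd3d on the plus strand and Cd3g and Cd3e on the minus strand. Their promoters are shown because these neighbouring genes all rose in both genotypes, though by unlike amounts in WT. They are the 250 bases before the RefSeq start of each gene, in GRCm38.p6, at chr9:44980432-44980681 for Cd3g, chr9:44981536-44981785 for Cd3d and chr9:45009612-45009861 for Cd3e, read 5′ to 3′ on the strand of the gene. Capitals mark the letters AGGAAG, the core that ETS family factors recognise, and CACCTG, an E-box, searched on both strands, so that CTTCCT is AGGAAG on the other strand.
Cd3g: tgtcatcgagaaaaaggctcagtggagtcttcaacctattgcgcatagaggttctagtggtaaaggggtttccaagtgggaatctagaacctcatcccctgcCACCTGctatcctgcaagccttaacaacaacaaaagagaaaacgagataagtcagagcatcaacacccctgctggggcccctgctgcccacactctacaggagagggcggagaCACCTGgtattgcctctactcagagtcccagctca
Cd3d: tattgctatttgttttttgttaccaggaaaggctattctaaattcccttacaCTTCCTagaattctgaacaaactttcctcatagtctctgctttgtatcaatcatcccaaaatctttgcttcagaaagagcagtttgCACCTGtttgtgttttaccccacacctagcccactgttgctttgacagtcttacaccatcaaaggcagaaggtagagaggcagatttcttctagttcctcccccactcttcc
Cd3e: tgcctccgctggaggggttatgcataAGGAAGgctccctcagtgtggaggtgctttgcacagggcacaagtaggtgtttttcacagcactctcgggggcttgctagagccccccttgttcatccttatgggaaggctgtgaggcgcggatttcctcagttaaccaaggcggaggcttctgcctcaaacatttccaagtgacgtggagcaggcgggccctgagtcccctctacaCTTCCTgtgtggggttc
The Cd3g window holds 2 E-boxes, the Cd3d window 1 E-box and 1 ETS core, and the Cd3e window 2 ETS cores, and no match overlaps another. RefSeq promoters were at hand for 33 of the 49 genes, 37 windows in all, and for 10 of the 17 T and NK genes, 11 windows. AGGAAG occurred in 6 of these 11 windows and in 15 of the 37, against 29.5% of 32851 promoters of the same length. CACCTG occurred in 4 of the 11 and 6 of the 37, against 17.2% of all promoters, and the TATA box letters TATAAA in 1 of the 11 and 3 of the 37, against 12.4%. A match of letters is not evidence of binding.

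All 3 of these genes rose in both genotypes. Cd3d had means of -0.68 in WT control, -0.14 in KO control, 2.54 in WT colitis and 2.81 in KO colitis, which gives changes of 3.22 (WT) and 2.95 (KO). Cd3g went from 0.80 to 3.18 in WT and from 0.50 to 3.15 in KO, with a KO minus WT difference of -0.04 in colitis. Cd3e went from 0.41 to 1.96 in WT and from -0.37 to 2.12 in KO. Its change was therefore 0.94 larger in KO (counting error 0.41), and most of that difference stood in the control means, which differed by -0.78, and not in the colitis means, which differed by 0.16. Exons of Cd3e overlap those of another gene on the opposite strand over 3.31% of their length, and whether the counting used strand was not given in the sources used here.

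Averaged over the genotypes, the CD8 co-receptor genes had the largest changes of the T and NK group. Cd8a, the alpha chain, went from 0.06 to 3.19 in WT and from -0.24 to 3.07 in KO. Cd8b1, the beta chain, went from -1.62 to 1.70 in WT and from -1.08 to 1.82 in KO. These 2 genes lie within 56.4 kb on chromosome 6, and their changes ranged from 3.13 to 3.32 in WT and from 2.90 to 3.31 in KO. Cd4, the co-receptor of helper T cells that is also found on some myeloid cells, rose less, from 3.69 to 4.73 in WT and from 3.69 to 4.84 in KO. Per kilobase of exon, the log2 level of Cd8a minus that of Cd4 was -3.48 in WT control and -1.39 in WT colitis. In KO the same differences were -3.79 and -1.62, so the gap narrowed by 2.09 in WT and 2.16 in KO.

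Receptors that tune T cell activation rose with them. Cd6, an inhibitory receptor on T cells, went from -0.05 to 2.78 in WT and from 0.31 to 2.90 in KO, and its neighbour and relative Cd5 changed by 2.25 and 2.58. Both genes rose in both genotypes. Cd7, an early T and NK cell antigen, went from 0.20 to 2.77 in WT and from 0.14 to 2.89 in KO. Cd96, a receptor for nectin family ligands, changed by 1.88 in WT and 2.38 in KO, and Cd244, an NK cell receptor that binds CD48, by 1.45 and 1.37. The costimulatory receptor Cd28 and the adhesion molecule Cd2 changed least, by 0.34 and 0.47 in WT, where neither was listed, and by 0.87 and 0.93 in KO, where both rose.

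The KO and WT changes differed by at least 2-fold for 3 members, and all 3 were low T and NK genes. The share of all genes past that difference was not computed, so the count has no background beside it. Cd101, an inhibitory receptor that is also found on neutrophils, had means of -1.48 in WT control and -0.38 in KO control, and of 1.25 and 0.73 in colitis, so that the KO change minus the WT change was -1.61 (counting error 0.57), and it was listed as risen only for WT. Cd160, a receptor of NK and cytotoxic T cells, had -1.23 and 0.18 in control and 1.17 and 1.49 in colitis, a difference of change of -1.10 (counting error 0.51). Cd27, a costimulatory receptor of the TNF receptor family, had -0.27 and -1.30 in control and 0.80 and 0.93 in colitis, a difference of 1.15 in the other direction (counting error 0.56), and it was listed as risen only for KO. In each of the 3 the control means lay further apart than the colitis means, and the WT control means stood for 3.63 reads per library for Cd101, 4.31 for Cd160 and 8.38 for Cd27. Cd226, an activating receptor of NK and T cells, had -0.54 and -0.90 in control and 0.63 and 0.99 in colitis, a difference of 0.72 (counting error 0.54). None of these differences was tested against the spread between mice.

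T cell genes that carry no CD name were also higher in colitis. All 9 genes of a T lymphocyte marker list (Trac, Trbc1, Trbc2, Lck, Lat, Zap70, Icos, Ctla4 and Il7r) appear in the tables, 9 risen in WT and 8 in KO, and their changes had medians of 2.35 (WT) and 2.17 (KO). Summed over the list, the control levels were 18.3 RPM (WT) and 22.0 RPM (KO), and the colitis levels 69.8 and 71.8 RPM. The summed level of the 17 CD-named genes was 34.8 and 33.5 RPM in control and 103 and 112 in colitis. The difference of change, KO minus WT, had a median of 0.18 over the CD-named genes, 11 of the 17 being above 0, and of -0.11 over the marker list, 3 of the 9 being above 0. Over all 5171 genes the median was -0.02, with 2448 above 0.

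The 2 genes of the B lineage had changes of 0.23 and 0.88 in WT and of 0.93 and 1.37 in KO, and the difference between genotypes was not tested. Cd79b, the B cell receptor chain, had means of 3.21 in WT control, 3.42 in KO control, 3.44 in WT colitis and 4.35 in KO colitis, and it was listed as risen only for KO. Cd180, a Toll-like receptor homologue of B cells and macrophages, had 2.31, 2.42, 3.18 and 3.80 in the same order and rose in both. In colitis KO lay above WT by 0.91 for Cd79b and 0.62 for Cd180, the 2 largest positive differences among the members, and neither is in the authors' KO against WT colitis list. Of 9 other B lineage markers only Blnk was in the tables, with changes of 0.56 in WT and 0.55 in KO. Its WT control mean of 7.15 lay well above that of Cd79b. Ms4a1, Pax5, Blk, Ighm, Jchain, Fcrla, Mzb1 and Cr2 were not found by these symbols among the 5171 genes. A gene is among those only if the authors called it different in at least 1 of the 4 comparisons.

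All 11 myeloid genes rose in both genotypes, the median of their changes being 1.43 (WT) and 1.60 (KO). Most of them belong to 2 families of paired receptors on myeloid cells. The 5 Cd300 genes lie within 244 kb on chromosome 11 and changed by 1.40 to 2.38 in WT and by 1.42 to 2.19 in KO. Cd300c2, an activating member, went from 1.88 to 4.25 in WT and from 2.01 to 4.20 in KO. Cd300lf, an inhibitory member, went from 1.87 to 4.06 in WT and from 1.69 to 3.36 in KO, so that its KO colitis mean was lower by 0.69, a difference of -0.69. Cd300a, another inhibitory member, went from 2.69 to 4.30 in WT and from 2.59 to 4.36 in KO, and Cd300ld from 2.30 to 4.19 and from 2.24 to 3.85. Stretches of 100 bases shared with a paralogue made up 3.77% of the transcript of Cd300c2 and 1.96% of that of Cd300lf. A read of 100 bases within such a stretch cannot by itself be assigned to 1 gene.

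The Cd200r genes, a family named after the receptor for the inhibitory ligand CD200, lie on chromosome 16. Cd200r4 went from -2.58 to 0.88 in WT and from -1.90 to 0.93 in KO, but both control means were below 3 reads per library. Taken against that floor per library, Cd200r4 was at least 6.21-fold higher in colitis in WT and at least 6.22-fold higher in KO. Cd200r1, the inhibitory receptor for CD200, changed by 1.23 in WT and 1.62 in KO, and Cd200r2 by 0.83 and 0.76. The classical monocyte and macrophage antigens rose by similar amounts. Cd14, the co-receptor for bacterial lipopolysaccharide, went from 5.94 to 7.37 in WT and from 6.29 to 7.29 in KO. Cd68, a lysosomal protein of macrophages, went from 4.08 to 5.30 in WT and from 4.12 to 5.30 in KO.

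The KO change was below the WT change for 8 of the 11 myeloid genes, with a median difference of -0.17. It was also below for 582 of the 888 genes whose change averaged over the genotypes was at least 2-fold up. Their median difference was -0.18, so the myeloid value is near that of the genes that went up. With each mean raised to at least 3 reads per library that median was -0.07. In a list of 10 other monocyte and macrophage markers, 8 could be used, and the medians were 1.46 for the WT change, 1.42 for the KO change and -0.10 for their difference. Of 8 neutrophil markers 7 could be used, all risen in both genotypes. In 4 of the 7 a control mean was under 3 reads per library, and with such means raised to that floor the median changes were 4.43 (WT) and 3.02 (KO). Ly6g alone made up most of their summed control level, at 92.0 RPM in WT and 98.2 in KO, and went to 207 and 236 RPM in colitis. Its WT control mean was 6.52 log2 RPM, against -2.09 for S100a8 and -1.30 for S100a9. In colitis the KO mean of Ly6g lay 0.19 above WT, and those of the other 6 lay below. Ly6g thus did not go with the rest of the list, and which cells gave its reads was not tested. In control the other 6 summed to 4.01 RPM (WT) and 4.03 RPM (KO), and in colitis to 191 and 50.2 RPM. The part of neutrophil RNA in the values of Cd101 and the myeloid genes was not tested.

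**Figure D2:**
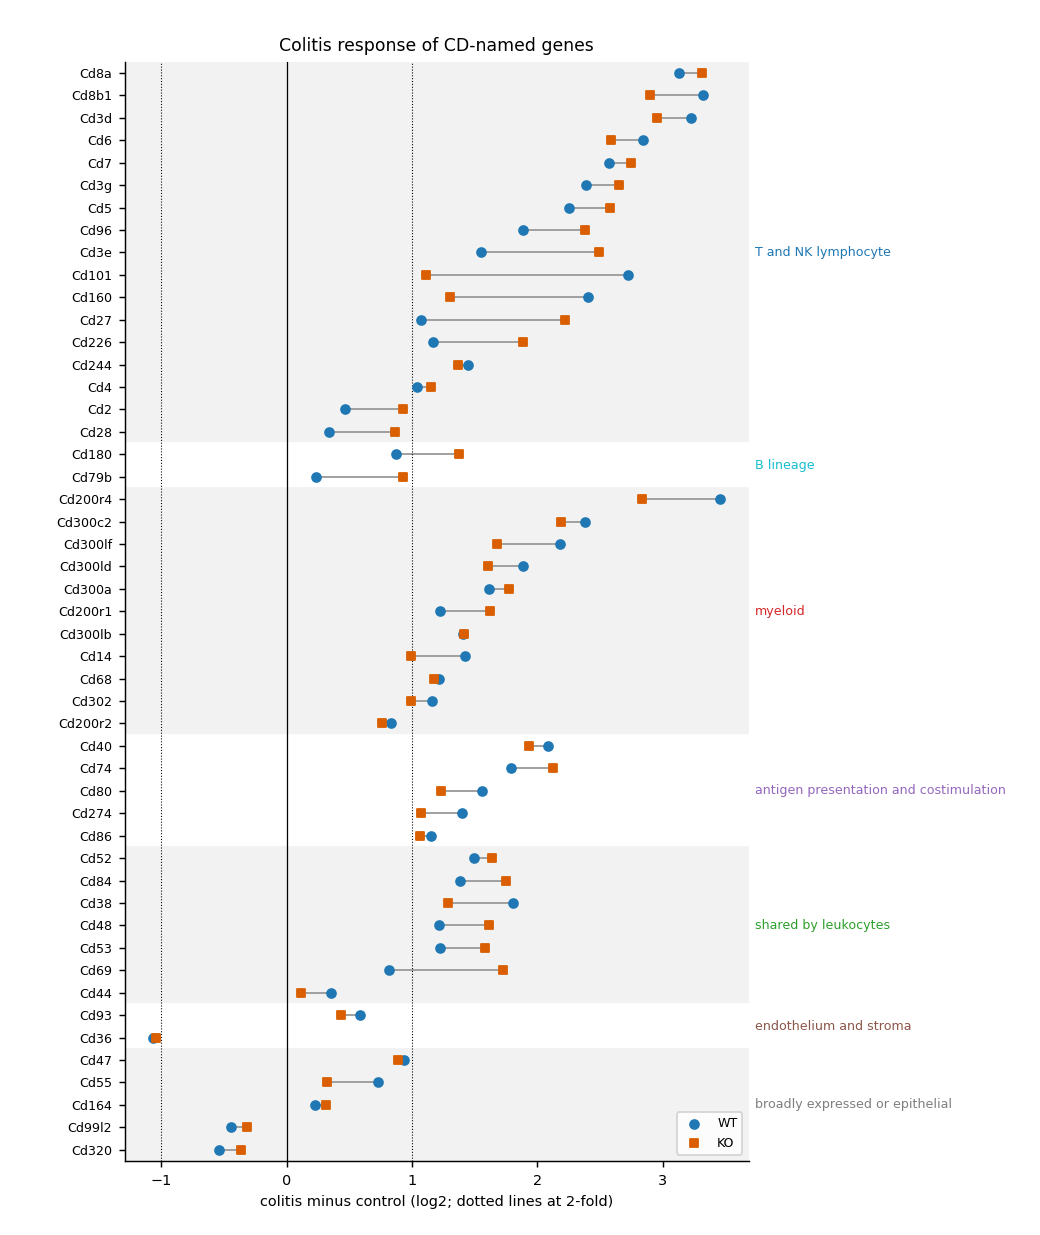
Colitis minus control, in log2 units on the horizontal axis, for each of the 49 CD-named genes in WT (circles) and KO (squares), with a line joining the genotypes and dotted lines at 2-fold. The longest joining lines belong to Cd101, Cd27 and Cd160, and Cd36 lies near -1 in both genotypes.

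All 5 genes of antigen presentation and costimulation rose in WT and 4 rose in KO, with median changes of 1.56 and 1.23. Cd74, the invariant chain that guides MHC class II molecules, had the highest level per kilobase of exon of all members in WT control and in WT colitis. Its means were 8.72 in WT control, 8.77 in KO control, 10.51 in WT colitis and 10.90 in KO colitis, so that it was the only one of the 5 with a larger change in KO, by 0.33 (counting error 0.02). Cd40, the receptor through which helper T cells activate antigen-presenting cells, went from 1.20 to 3.28 in WT and from 1.22 to 3.15 in KO. Cd80 and Cd86 encode the ligands of CD28. Cd80 had -0.07, -0.43, 1.49 and 0.80 in the same order as Cd74 and was listed only for WT, and Cd86 had 2.68, 2.71, 3.83 and 3.77 and rose in both. Cd274, which encodes the inhibitory ligand PD-L1, rose from 4.32 to 5.72 in WT and from 4.36 to 5.43 in KO. Another annotated gene on the opposite strand overlaps 14.1% of the exon length of Cd274. Exons of 10 members overlap another gene, and the other large shares, also on the opposite strand, were 14.5% for Cd52 and 10.8% for Cd7.

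Of the 7 genes shared by many leukocytes 6 rose in each genotype, and the medians over the 7 were 1.23 (WT) and 1.61 (KO). The KO change was larger for 5 of them, with a median difference of 0.36. Over all 5171 genes it was larger for 2448, with a median difference of -0.02. Cd52, a small glycoprotein of lymphocytes and monocytes, went from 4.86 to 6.35 in WT and from 4.87 to 6.51 in KO. Cd53, a tetraspanin, went from 4.62 to 5.84 and from 4.38 to 5.96, Cd48, the ligand of CD244, from 2.81 to 4.03 and from 2.56 to 4.18, and Cd84, a self-binding receptor of the same family, from 3.02 to 4.41 and from 2.79 to 4.53. For Cd53, Cd48 and Cd84 the KO mean was the lower one in control and the higher one in colitis. The same held for Cd69, an early activation antigen, with 0.77 and 0.18 in control and 1.58 and 1.91 in colitis, which was listed as risen only for KO. Cd44, the hyaluronan receptor found on leukocytes and epithelium, changed least, by 0.35 in WT, where it rose, and by 0.12 in KO.

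Cd38, an enzyme that consumes NAD and is carried by many leukocytes, was the only member in a list of the authors that compared the genotypes. Its mean was 7.74 in WT control and 8.15 in KO control, 0.40 higher in KO, and the KO against WT control list holds 46 genes, 0.890% of all. In colitis its means were 9.55 in WT and 9.43 in KO, a difference of -0.12. The WT control mean of Cd38 lay above that of the general leukocyte gene Ptprc (5.64). In control Cd53, Cd48 and Cd84 differed the other way, by -0.24, -0.25 and -0.24. Which cells of the tissue carried the Cd38 difference was not tested. No member was in the KO against WT colitis list, which holds 56 genes, 1.08% of all.

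**Figure D3:**
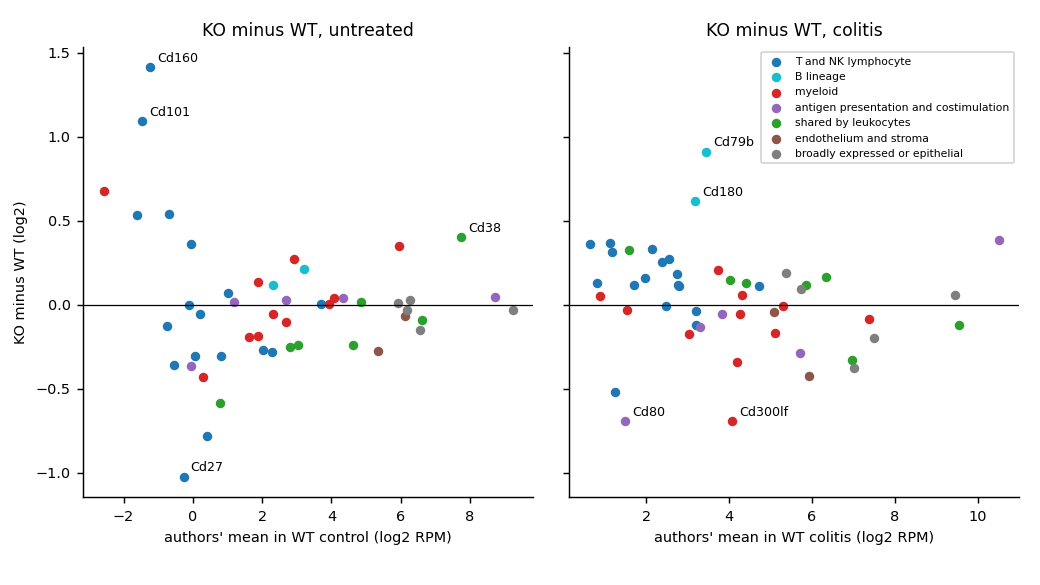
KO minus WT in log2 units on the vertical axis against the authors' WT mean in log2 RPM, for the 49 CD-named genes in untreated mice (left) and in colitis (right), coloured by lineage. The untreated differences range from -1.02 for Cd27 to 1.41 for Cd160, both low genes, and the colitis differences from -0.69 for Cd80 to 0.91 for Cd79b.

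Over all members the genotypes differed little. KO control lay above WT control for 23 of the 49 genes, beside 51.0% of all genes, with a median difference of -0.03. KO colitis lay above WT colitis for 27, beside 47.4% of all genes, with a median of 0.06. A difference of at least 2-fold was seen for 3 members in control, Cd160 (1.41), Cd101 (1.09) and Cd27 (-1.02), beside 1.82% of all genes, and for 0 in colitis, beside 4.39%. Of the members whose change averaged over the genotypes was at least 2-fold up, 19 of 37 had the larger change in KO, beside 34.5% of the 888 genes of the tables chosen by the same average. The median difference of change was 0.01 over those 37 members and -0.18 over the 888 genes. All 4 groups enter both changes and the same control means stand in the change and in the control difference, so these values are not independent of each other.

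**Figure D4:**
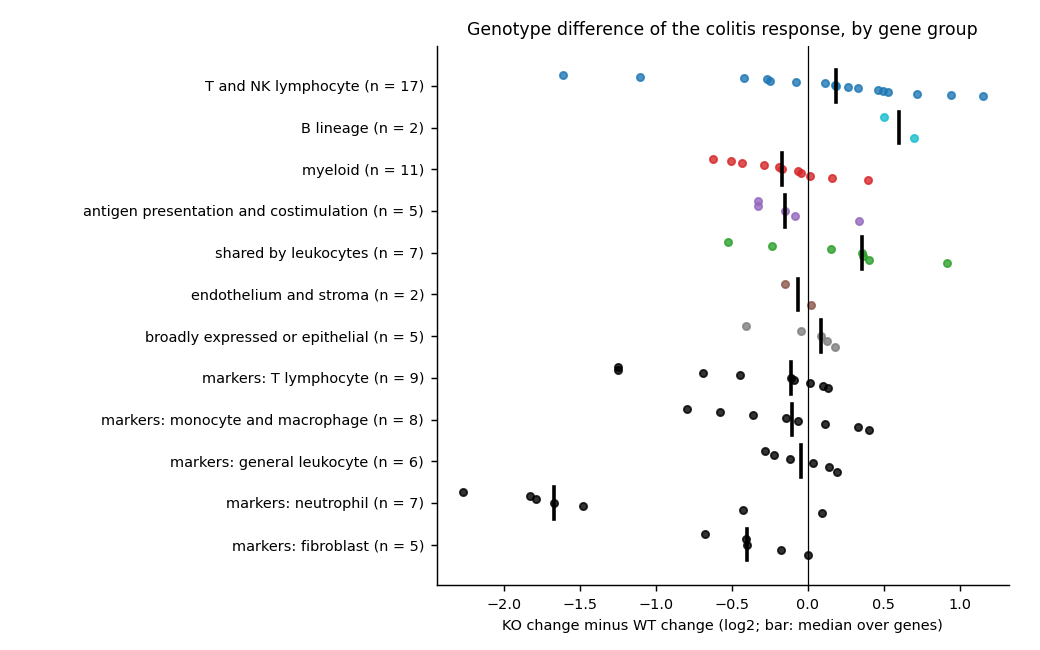
KO change minus WT change in log2 units on the horizontal axis, 1 point per gene and a bar at the median, for the 7 lineage groups of CD-named genes and, in black, 5 marker lists without CD names. The neutrophil markers lie furthest to the left with a median of -1.67, or -1.72 with means under 3 reads per library raised to that floor, and the medians of the CD-named groups lie between -0.17 and 0.60.

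Against the general leukocyte markers Ptprc, Itgb2, Laptm5, Tyrobp, Fcer1g and Coro1a, the group medians differed while the ranges of the groups overlapped. Over these 6 genes the changes had medians of 1.55 (WT) and 1.58 (KO). Fcer1g and Tyrobp changed most, by 2.11 and 1.96 in WT and by 1.89 and 1.67 in KO. In each genotype 11 of the 17 T and NK genes changed more than that, with a median excess of 0.70 in WT and 0.79 in KO. The levels were unlike, with WT control means of 3.75 (Fcer1g) to 5.88 (Laptm5) in the list and at most 3.69 (Cd4) among the T and NK genes. Cd4, Cd2 and Cd28, the highest T and NK genes in control, changed less than the list in both genotypes. The part of level in the excess was not tested. The myeloid genes had medians of -0.12 and 0.02 relative to the list median, 5 of 11 being above it in WT and 6 in KO. Ptprc alone changed by 1.34 in WT and 1.48 in KO, less than the myeloid medians of 1.43 and 1.60. The place of the myeloid genes therefore depends on which genes are in the list. Both B lineage genes lay below it, with medians of -0.99 and -0.43.

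The members that fell are among the genes that are not confined to leukocytes. The 5 broadly expressed or epithelial genes had medians of 0.23 (WT) and 0.32 (KO), and the 2 genes of endothelium and stroma went in opposite directions. Cd36, a fatty acid and thrombospondin receptor of endothelium, fat cells and macrophages, went from 6.13 to 5.07 in WT and from 6.07 to 5.03 in KO, and it fell in both genotypes. Cd320, the receptor for vitamin B12 bound to transcobalamin, fell in WT from 5.92 to 5.38 and had 5.93 and 5.57 in KO, where it was not listed. Cd99l2, an adhesion molecule, fell in WT from 6.18 to 5.74 and had 6.15 and 5.83 in KO, where it was not listed either.

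The other 4 of these genes rose in both genotypes. Cd93, a receptor of endothelium and myeloid cells, went from 5.34 to 5.93 in WT and from 5.07 to 5.51 in KO. Cd47, the signal that restrains phagocytes, went from 6.55 to 7.49 and from 6.40 to 7.29. Cd55, which limits complement on cell surfaces, went from 6.28 to 7.01 and from 6.31 to 6.63, and 6.86% of its transcript is shared in 100-base stretches with a near copy. Cd164, a sialomucin, went from 9.24 to 9.46 and from 9.20 to 9.52. Of 8 other endothelial markers 2 were in the tables, where Eng changed by 0.63 in WT and 0.13 in KO and Tek by -0.19 and -0.46. Of 6 fibroblast markers 5 were in the tables (Col1a1, Col3a1, Dcn, Lum and Pdpn), all risen in both genotypes, with medians of 1.07 (WT) and 0.64 (KO). In colitis the KO mean was the lower one for all 5, beside 2722 of all 5171 genes. The same held for 579 of the 888 genes whose change averaged over the genotypes was at least 2-fold up. Of 11 epithelial markers 0 were in the tables, so the epithelial part of the tissue was not checked by them.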

How the data were processed

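RNA-seq of whole colon was made from 16 libraries in 4 groups. The authors aligned reads to GRCm38 with HISAT2 (version 2.1.0, per the submitters' processing notes), left out reads in rRNA annotation, counted reads over exons and compared groups with DESeq2. The deposited tables hold, for the genes the authors called at an adjusted p of 0.05 in each of 4 comparisons, log2 RPM values as group means. They also hold the authors' adjusted p-values, which were not used here. Because values of single libraries were not used, no count model was refitted and no error between mice is given.

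Changes are differences of group means, computed with Python 3.11.15, pandas 2.3.3 and numpy 2.4.6 over all 5171 distinct genes. The depth calculation was run on simulated data in which some genes were given no read in any library. Its recovery of depth was fixed by that setting and does not check the real data. Exon lengths and overlaps came from GENCODE M21, where 48 genes matched by symbol and 1 by an older symbol. Promoters came from RefSeq (GRCm38.p6). Any member could be named, and all 4 means are given for up to 5 members of each lineage group with the largest changes, the 6 with the largest genotype difference of change, members that fell and members in a KO against WT list. The members and lists were chosen with earlier results of these data known. A gene of the T lymphocyte marker list is not reported here and was left out of its values.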

Additional observations from a re-analysis of the deposited data

How the results depend on the processing

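The 36 summary values of the members (medians and counts past 2-fold) were recomputed under 8 alternatives, giving 241 values, of which 217 stayed within 0.2 log2 units, or within 1.5-fold for a count. Subtracting the median of all genes and raising means to 3 reads per library moved none of them. Requiring 10 reads in any group, which a member could pass through colitis alone, removed 0 members, and leaving out names that are no surface antigen removed none either, so neither bears on stability. Medians could not move with the fold, and counts could not move with the mean in place of the median. All these values are among the 217, so that number overstates stability. At 1.5-fold in place of 2-fold, 5 members, not 1, had a KO change above the WT change by the fold, 3 and not 1 were lower in KO control, and in colitis 2 were higher and 2 lower, not 0. Shares of all genes past 1.5-fold were not computed. Without Cd101, chosen after seeing the data, 1 and not 2 members had a KO change lower by 2-fold. With the mean in place of the median, the T and NK changes were 1.99 (WT) and 2.08 (KO), the myeloid WT change 1.71, and the KO changes of antigen presentation 1.49 and of the shared genes 1.39.

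Taking changes relative to the general leukocyte list, also chosen after seeing the data, subtracts 1.55 in WT and 1.58 in KO from every gene, so groups that changed less than that list turn negative. The values, WT then KO, were 0.70 and 0.79 for T and NK, -0.99 and -0.43 for the B lineage, -0.12 and 0.020 for myeloid, 0.011 and -0.35 for antigen presentation, -0.32 and 0.031 for the shared genes, -1.78 and -1.89 for endothelium and stroma, and -1.32 and -1.27 for the broadly expressed genes. The T and NK medians alone were above the list in both genotypes, and in WT control all T and NK genes were lower than the genes of that list.

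No paired analysis was possible because the tables analysed here hold group means and no values of numbered replicates. Leaving out each replicate was not run for the same reason. Depth limits the lowest genes, 9 of which had both control means under 10 reads per library.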
